A study of Homo sapiens with 18 samples.

Results

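The Polycomb group genes examined here were EZH1, EZH2, EED, SUZ12, JARID2, CBX2, CBX7, CBX8 and BMI1, 9 of the 28395 genes in the RNA-seq tables, chosen by symbol. Around them, 49 of the 85549 merged ATAC-seq regions lay within 5 kb of a member's gene body. K562 is a human chronic myelogenous leukemia cell line with erythroid features that lacks the corepressor BASP1. The vector without an insert gave V-K562, the plasmid for wtBASP1 gave B-K562, and that for BASP1-G2A, a form that cannot be myristoylated at its N-terminus, gave G-K562. All 3 lines were stably transfected pools kept in G-418, and each was sampled as 3 cultures in each of 2 assays, RNA-seq and ATAC-seq (9 libraries each). Each construct was represented by a single line, so an effect of BASP1 and a difference between selected pools cannot be told apart, and p-values measure the spread between cultures of a line.

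Polycomb group proteins keep developmental genes silent through complexes that modify histones. In Polycomb repressive complex 2 (PRC2), EZH1 or EZH2 methylates lysine 27 of histone H3, EED and SUZ12 are the core subunits needed for that activity, and JARID2 is an accessory subunit that helps bring the complex to chromatin. In the canonical form of Polycomb repressive complex 1 (PRC1), a CBX protein binds the methylated histone H3, BMI1 is 1 of the PCGF subunits, and the RING1 or RNF2 subunit ubiquitylates histone H2A. In blood cells EZH2 and BMI1 are known for their roles in stem cell renewal and in leukemia.

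The labels were checked on BASP1 itself. BASP1 had normalised read counts of 7, 5 and 7 in V-K562, 6965, 6730 and 6294 in B-K562, and 9323, 12538 and 8124 in G-K562, so its transcript was present in both BASP1 lines and near the limit of detection in V-K562. As deposited, before the lines were put on 1 scale, the libraries summed to normalised read counts of 32074895 to 33229588 on genes. The erythroid and K562 marker list (GATA1, TAL1, KLF1, NFE2, HBG1, HBG2, HBZ and TFRC) was detected in every line, with summed values of 91285 to 102161 for V-K562 libraries, 156232 to 159180 for B-K562 and 51423 to 57997 for G-K562. Of these 8 genes, 7 were higher and 1 was lower in B-K562 than in V-K562, and 1 was higher and 7 were lower in G-K562. The list of 10 markers of other cell types summed to 4677 to 4789 for V-K562, 3927 to 4197 for B-K562 and 6352 to 6864 for G-K562. Within it LYZ, a lysozyme of myeloid cells, had 1323 to 1369 for V-K562, 1286 to 1426 for B-K562 and 3772 to 4301 for G-K562, and MS4A1 was at 0 in every library. Of the list, 1 of 8 tested was higher and 3 were lower in B-K562 than in V-K562, and 2 of 7 were higher and 3 lower in G-K562, the lower ones there being COL1A1, COL1A2 and EPCAM. Beside both lists, 38.6% of all genes tested were higher and 37.2% lower in B-K562 (limma, adjusted p of at most 0.05). In G-K562 these shares were 33.5% and 33.3%. The erythroid markers therefore moved with the BASP1 lines beside every result below, and their part in the member values was not tested. In these bulk samples fewer cells of a type and less RNA per cell cannot be told apart.

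The genes lie on 6 chromosomes in GRCh38. EZH1 (17:42700275-42745078, minus strand), SUZ12 (17:31937025-32001045, plus strand), CBX2 (17:79777188-79787650, plus strand) and CBX8 (17:79794377-79797116, minus strand) are on chromosome 17, and CBX2 and CBX8 point toward each other across a gap of 6727 bp. EZH2 (7:148807372-148884349, minus strand), EED (11:86244544-86285420, plus strand), JARID2 (6:15245975-15522042, plus strand), CBX7 (22:39130772-39152662, minus strand) and BMI1 (10:22321210-22331485, plus strand) are each alone on their chromosome among the 9.

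The RefSeq promoter table (GRCh38.p14) held 10 promoters of 7 of the 9 members, with 2 each for EZH2, BMI1 and JARID2. The 250 bases before a start of that table, which is not always the gene end given above (the EED and EZH2 windows reach into the genes as given), are shown, 1 promoter a gene, for the 3 core PRC2 genes and for CBX7 and BMI1, because an ATAC-seq region at each was called higher in G-K562 than in V-K562. Each is written 5′ to 3′ on the gene's own strand, and capitals mark matches to 4 motifs searched on both strands, TTTNNCGC (the E2F motif), GCGNGGGCG and GNGTGGGAG (motifs of the WT1 and EGR zinc finger type) and AANATGGC (the YY1 motif).
EZH2, chr7:148884292-148884541, minus strand: 
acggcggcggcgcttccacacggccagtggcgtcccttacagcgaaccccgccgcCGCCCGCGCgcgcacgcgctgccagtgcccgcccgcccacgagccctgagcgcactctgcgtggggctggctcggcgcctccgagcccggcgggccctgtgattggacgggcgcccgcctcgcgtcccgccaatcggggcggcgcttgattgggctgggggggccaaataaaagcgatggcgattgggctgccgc
SUZ12, chr17:31936757-31937006, plus strand: 
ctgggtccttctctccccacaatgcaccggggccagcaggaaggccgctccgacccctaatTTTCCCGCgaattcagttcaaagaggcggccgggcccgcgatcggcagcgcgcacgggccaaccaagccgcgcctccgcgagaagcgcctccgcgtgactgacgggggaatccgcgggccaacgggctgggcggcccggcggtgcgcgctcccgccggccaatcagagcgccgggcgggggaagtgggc
EED, chr11:86244503-86244752, plus strand: 
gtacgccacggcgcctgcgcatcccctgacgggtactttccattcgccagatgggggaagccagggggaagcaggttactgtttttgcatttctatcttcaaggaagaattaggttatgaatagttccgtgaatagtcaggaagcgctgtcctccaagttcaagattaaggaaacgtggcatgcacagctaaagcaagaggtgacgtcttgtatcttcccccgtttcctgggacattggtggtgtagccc
CBX7, chr22:39152681-39152930, minus strand: 
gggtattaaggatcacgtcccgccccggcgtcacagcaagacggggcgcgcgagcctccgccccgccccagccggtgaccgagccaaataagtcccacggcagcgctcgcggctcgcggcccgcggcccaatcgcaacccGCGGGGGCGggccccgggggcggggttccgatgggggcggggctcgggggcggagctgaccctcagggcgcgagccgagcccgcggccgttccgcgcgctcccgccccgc
BMI1, chr10:22320849-22321098, plus strand: 
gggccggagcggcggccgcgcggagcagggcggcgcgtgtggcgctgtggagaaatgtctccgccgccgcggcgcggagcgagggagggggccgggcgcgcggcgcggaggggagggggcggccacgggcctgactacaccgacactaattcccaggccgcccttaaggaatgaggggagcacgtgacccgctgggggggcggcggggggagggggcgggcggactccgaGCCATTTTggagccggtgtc

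SUZ12 held 1 match to TTTNNCGC, EZH2 and CBX7 held 1 match each to GCGNGGGCG, and BMI1 held 1 match to AANATGGC on its minus strand, while EED held no match to the letters searched. Of the promoters not shown for these genes, that of BMI1 held 1 match to GCGNGGGCG and that of EZH2 held none. Among all 35116 promoters of the table, 5.92% held TTTNNCGC, 8.41% GCGNGGGCG, 3.84% GNGTGGGAG and 3.86% AANATGGC in the same window. The 5 sequences differ in base composition: G and C made up 51.2% of the EED window and 78.8% of the CBX7 window, against a median of 58.0% over the table.

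The first question was how the members' transcripts differed between each BASP1 line and V-K562. In B-K562, 4 members were higher (EZH2, EED, CBX2 and BMI1), 3 were lower (EZH1, JARID2 and CBX7), and SUZ12 and CBX8 did not pass the test. In G-K562, 4 were higher (EED, SUZ12, CBX2 and CBX8), 3 were lower (EZH1, EZH2 and JARID2), and CBX7 and BMI1 did not pass. Calls were made with limma on log2(value + 1), wherever the p-value adjusted over all genes tested did not exceed 0.05. By that rule, 38.6% of the 14958 genes tested were higher and 37.2% lower in B-K562, and 33.5% of 15271 were higher and 33.3% lower in G-K562. The share of members called in each direction, 4 and 3 of 9, was near that background in both lines. Under upper quartile scaling, which moved the median of all genes in B-K562 from 0.007 to -0.145, 4525 genes were higher and 6871 lower in B-K562, against 5780 and 5562 here. With at least a 2-fold difference also required, CBX2 was higher and CBX7 lower in B-K562, and CBX2 was higher and EZH1 lower in G-K562. The background of that rule was 6.46% higher and 14.1% lower in B-K562, and 8.81% higher and 10.3% lower in G-K562. The median log2 difference over the 9 members was 0.15 in B-K562 and -0.11 in G-K562, beside medians of 0.01 and 0.00 over all genes tested. The V-K562 libraries are shared by both comparisons.

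**Figure D1:**
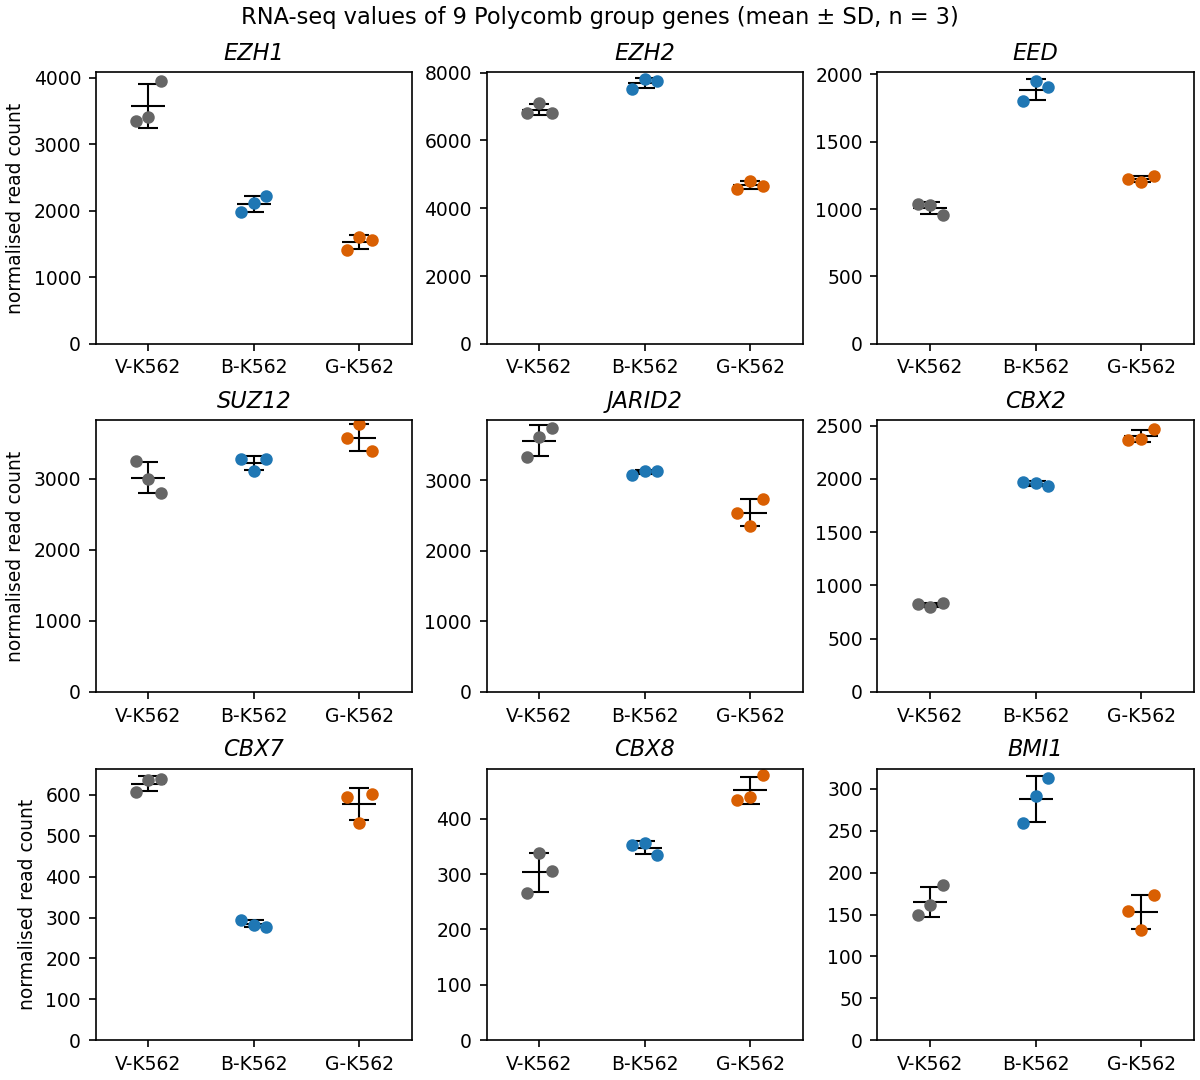
Normalised read count (vertical axes, from 0) of each Polycomb group gene in the 3 cultures of each line, as points, with the mean and SD in black. CBX2 lies at 800 to 838 in V-K562 and at 1930 to 2466 in the BASP1 lines, whereas CBX7 is low in B-K562 alone, at 278 to 294.

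EZH1 and EZH2 encode the alternative catalytic subunits of PRC2. The EZH2 values were 6820, 7096 and 6821 in V-K562, 7520, 7816 and 7745 in B-K562 and 4575, 4806 and 4669 in G-K562. The 3 lines did not overlap, with G-K562 lowest and B-K562 highest. The log2 difference from V-K562 was 0.15 ± 0.04 (SE) in B-K562 (limma, adjusted p = 0.0055), a value that became -9.8e-06 under upper quartile scaling (adjusted p = 1), and it was -0.56 ± 0.05 in G-K562 (adjusted p = 2.3e-06). The EZH1 values were 3352, 3412 and 3957 in V-K562, 1978, 2115 and 2221 in B-K562 and 1414, 1606 and 1567 in G-K562. EZH1 was thus highest in V-K562 and lowest in G-K562 with no overlap. Its log2 difference was -0.76 ± 0.07 in B-K562 (adjusted p = 1.5e-07) and -1.22 ± 0.08 in G-K562 (adjusted p = 1.0e-07), 2.33-fold lower. Per kb of merged exon, EZH2 exceeded EZH1 by a ratio of 2.40 ± 0.239 (SD, n = 3) in V-K562, 4.52 ± 0.197 in B-K562 and 3.79 ± 0.178 in G-K562. No library of any line overlapped those of another in this ratio, and the exact two-sided permutation test gave p = 0.1 for each pair of lines, the smallest p that 3 against 3 libraries allows.

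EED, the PRC2 subunit that recognises methylated lysine 27, had values of 1040, 1027 and 958 in V-K562, 1801, 1953 and 1906 in B-K562 and 1223, 1201 and 1244 in G-K562. All B-K562 libraries stood above all G-K562 libraries, and those above all V-K562 libraries. The log2 difference from V-K562 was 0.90 ± 0.06 in B-K562 (adjusted p = 6.4e-09) and 0.28 ± 0.06 in G-K562 (adjusted p = 0.0023). The 24 other genes tested within 5 Mb of EED had a median log2 difference of 0.55 in B-K562, and the 25 tested in G-K562 had 0.48, so genes around EED were also mostly higher in both lines.

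SUZ12, the scaffold subunit of PRC2, had values of 3247, 2999 and 2802 in V-K562, 3273, 3112 and 3278 in B-K562 and 3580, 3771 and 3384 in G-K562. The V-K562 and B-K562 libraries overlapped, and G-K562 lay above both. The log2 difference in B-K562 was 0.10 ± 0.06 (95% interval -0.03 to 0.22, adjusted p = 0.14), and it was -0.06 under upper quartile scaling and 0.15 (adjusted p = 0.0092) without V-K562 replicate 1. In G-K562 it was 0.25 ± 0.07 (adjusted p = 0.007). SUZ12P1, a related pseudogene with which reads could be shared, had values of 415 to 545 over the 9 libraries.

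JARID2 had values of 3323, 3619 and 3741 in V-K562, 3077, 3133 and 3125 in B-K562 and 2532, 2355 and 2740 in G-K562. The lines did not overlap, and the order was V-K562, B-K562, G-K562. The log2 difference was -0.19 ± 0.05 in B-K562 (adjusted p = 0.0035) and -0.49 ± 0.07 in G-K562 (adjusted p = 8.1e-05). Its 39 tested neighbours within 5 Mb had medians of 0.06 in B-K562 and -0.29 in G-K562, so the neighbours were mostly lower in G-K562 too.

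The CBX genes encode the chromodomain subunits of canonical PRC1. CBX2 had values of 822, 800 and 838 in V-K562, 1975, 1962 and 1930 in B-K562 and 2362, 2373 and 2466 in G-K562. Both BASP1 lines lay far above V-K562, with G-K562 the higher. The log2 difference was 1.25 ± 0.05 in B-K562 (2.38-fold, adjusted p = 1.3e-10) and 1.55 ± 0.06 in G-K562 (2.92-fold, adjusted p = 2.2e-09). CBX8, whose gene faces CBX2, had values of 266, 338 and 305 in V-K562, 353, 356 and 335 in B-K562 and 434, 440 and 480 in G-K562. V-K562 and B-K562 overlapped, while G-K562 stood above both. The CBX8 log2 difference was 0.20 ± 0.09 in B-K562 (95% interval 0.00 to 0.41, adjusted p = 0.063), which became 0.29 (adjusted p = 0.019) without V-K562 replicate 2, and 0.58 ± 0.10 in G-K562 (adjusted p = 0.00039). The genes tested within 5 Mb of CBX2 had a median log2 difference of 0.02 in B-K562 and 0.17 in G-K562, well below the CBX2 values.

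CBX7 went the other way in B-K562. Its values were 606, 636 and 640 in V-K562, 294, 281 and 278 in B-K562 and 596, 532 and 603 in G-K562. B-K562 lay below the other lines, and the highest G-K562 library was just under the lowest V-K562 library. The log2 difference was -1.14 ± 0.07 in B-K562 (2.21-fold lower, adjusted p = 5.9e-09) and -0.12 ± 0.08 in G-K562 (95% interval -0.29 to 0.05, adjusted p = 0.19). The 136 neighbours of CBX7 tested in B-K562 had a median of -0.12, with the middle of their distribution between -0.71 and 0.42.

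Per kb of merged exon, CBX2 and CBX7 were close in V-K562 and apart in the BASP1 lines. The ratio of CBX2 to CBX7 per kb was 1.07, 0.989 and 1.03 in V-K562, 5.29, 5.50 and 5.47 in B-K562 and 3.12, 3.51 and 3.22 in G-K562 (exact two-sided permutation test, p = 0.1 for each pair of lines, the smallest that 3 against 3 allows). Summed over the members CBX2, CBX7 and CBX8, the value per kb was 505 ± 25.7 (SD, n = 3) in V-K562, 668 ± 13.1 in B-K562 and 891 ± 32.7 in G-K562. CBX2 made up 31.1% ± 1.96 of that sum in V-K562, 56.0% ± 0.463 in B-K562 and 51.5% ± 0.758 in G-K562. CBX7 made up 30.2% ± 0.773, 10.3% ± 0.209 and 15.7% ± 0.806 in the same order, and CBX8 held 38.7% ± 2.73, 33.7% ± 0.520 and 32.8% ± 0.719. CBX8 thus held the largest of the 3 shares in V-K562, while in both BASP1 lines CBX2 held the largest and CBX7 the smallest. CBX6, which is no member and not in that sum, had 206 per kb in V-K562, 357 in B-K562 and 314 in G-K562. The shares are therefore among the 3 members only. The CBX7 share of G-K562 was below that of V-K562, although the CBX7 value itself did not pass the test there, and the sum of which it is a share was larger in G-K562.

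**Figure D2:**
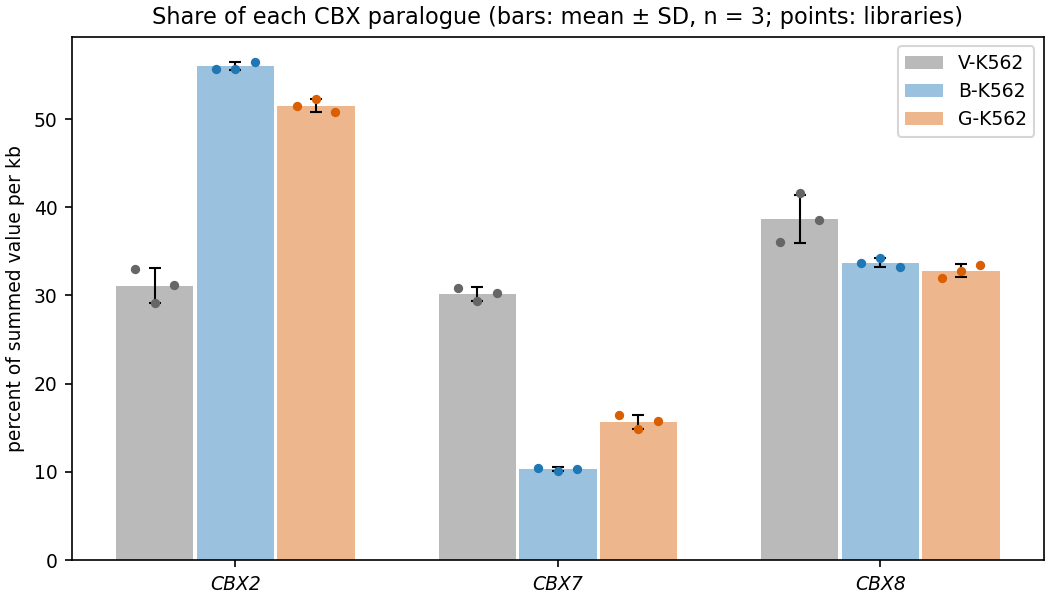
Percent of the summed CBX value per kb (vertical axis, from 0) held by each of the 3 CBX members in the 3 lines, with bars for the mean, whiskers for the SD and points for the 3 libraries. CBX2 holds 31.1% in V-K562 and reaches 56.0% with wtBASP1 and 51.5% with BASP1-G2A, while CBX7 goes from 30.2% to 10.3% and 15.7%.

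BMI1, also known as PCGF4, is a PCGF subunit of canonical PRC1, as is PCGF2. Of its 3430 exon bases, 2943 (85.8%) also belong to the readthrough gene COMMD3-BMI1, which was listed at 0 to 2 in every library, so the BMI1 value may rest largely on the 487 bases of its own and was left out of comparisons per kb. The BMI1 values were 149, 161 and 185 in V-K562, 259, 292 and 313 in B-K562 and 154, 132 and 173 in G-K562. B-K562 lay above the other lines, which overlapped. The log2 difference was 0.80 ± 0.11 in B-K562 (1.75-fold, adjusted p = 1.3e-05) and -0.11 ± 0.14 in G-K562 (95% interval -0.41 to 0.19, adjusted p = 0.48). At a mean of 165 in V-K562 the counting error alone is about 7.78%. COMMD3, the gene upstream, had log2 differences of -0.18 in B-K562 and -0.37 in G-K562, so it did not rise with BMI1. The other genes tested within 5 Mb of BMI1 had a median of -0.05 in B-K562 and -0.59 in G-K562, so these neighbours were mostly lower in G-K562.

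**Figure D3:**
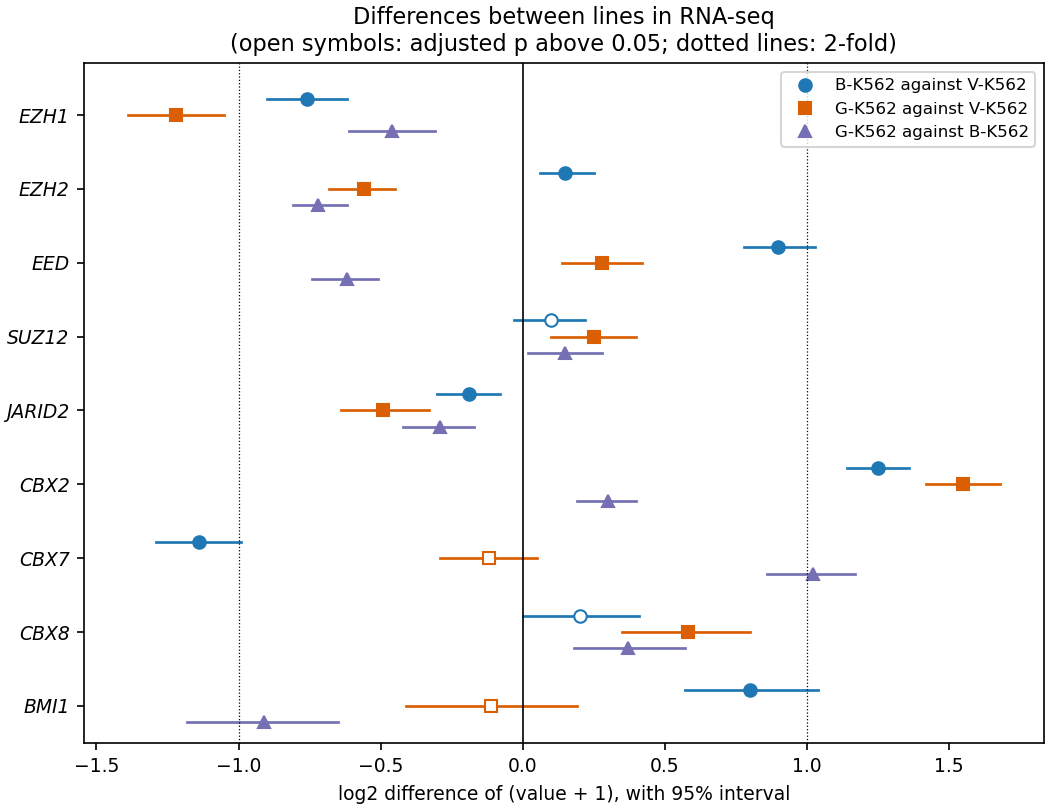
Log2 difference of (value + 1) for each member (horizontal axis) with its 95% interval, for B-K562 against V-K562 (circles), G-K562 against V-K562 (squares) and G-K562 against B-K562 (triangles). Open symbols did not pass an adjusted p-value of 0.05, dotted lines mark 2-fold, and the B-K562 circles of EZH2 (0.15) and SUZ12 (0.10) drop to about 0 or below under upper quartile scaling.

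The next question was whether the BASP1 lines differed from each other, tested as G-K562 against B-K562 in a fit of all 9 libraries. BASP1 itself was higher in G-K562, by 0.56 (limma, adjusted p = 0.0019). All 9 members passed this test: EZH1, EZH2, EED, JARID2 and BMI1 were lower in G-K562 than in B-K562, and SUZ12, CBX2, CBX7 and CBX8 were higher. Over the 15521 genes tested, 38.1% were higher and 40.5% lower in G-K562 by the same rule. The largest difference was that of CBX7, 1.02 ± 0.07 (adjusted p = 9.3e-09), followed by BMI1 at -0.91 ± 0.12 (adjusted p = 9.5e-06) and EZH2 at -0.72 ± 0.04 (adjusted p = 1.4e-09). The 35 genes tested within 5 Mb of BMI1 had a median of -0.33, with the middle of their distribution between -0.99 and -0.01, which takes in the BMI1 value. EED differed by -0.62 ± 0.05 (adjusted p = 9.2e-08) and EZH1 by -0.46 ± 0.07 (adjusted p = 3.6e-05). CBX8 differed by 0.37, CBX2 by 0.30 and JARID2 by -0.29. SUZ12 had the smallest difference, 0.15 ± 0.06 (adjusted p = 0.031), and this call was lost in 6 of the alternatives, for example at an adjusted p = 0.12 without B-K562 replicate 2. With at least 2-fold also required, only CBX7 was called, against a background of 17.4% higher and 12.5% lower.

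The order of the members by value per kb differed between the lines. In V-K562 the order was EZH2 (1827), EZH1 (765), SUZ12 (648), JARID2 (522), EED (237), CBX8 (196), CBX2 (157) and CBX7 (152), and of these neighbours CBX2 and CBX7 overlapped. In B-K562 it was EZH2 (2033), SUZ12 (692), JARID2 (456), EZH1 (451), EED (444), CBX2 (374), CBX8 (225) and CBX7 (69.0), with JARID2, EZH1 and EED overlapping in turn. In G-K562 it was EZH2 (1238), SUZ12 (769), CBX2 (459), JARID2 (373), EZH1 (327), CBX8 (292), EED (287) and CBX7 (140.2), where EZH1 overlapped CBX8 and CBX8 overlapped EED. EZH2 was the most abundant in every line, and CBX2 moved from seventh place in V-K562 to sixth in B-K562 and the third place in G-K562.

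CBX2 had the widest range of group means among the members, 1.55 on the log2 scale. The genes with the pattern most like it over the 9 libraries, by Pearson's r of log2(value + 1), were ERF, an ETS domain repressor (r = 0.997), RUNDC1 (r = 0.996) and NOP14-AS1, an antisense transcript (r = 0.995). ERF had values of 1886, 1715 and 1778 in V-K562, 3293, 3377 and 3386 in B-K562 and 3856, 3936 and 3800 in G-K562. The 9 libraries form 3 groups, and 4.93% of the 15520 other genes tested had an r over 0.9 with CBX2.

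The other subunits and partners of the complexes were taken from lists of 47 genes, of which 43 were tested in each comparison. In B-K562, 20 were higher and 12 lower than in V-K562, with a median log2 difference of 0.05, and in G-K562, 14 were higher and 16 lower, with a median of -0.04. In G-K562 against B-K562, 9 were higher and 24 lower, with a median of -0.20 beside -0.02 over all genes tested. Over all genes tested the shares higher and lower were 38.6% and 37.2% in B-K562, 33.5% and 33.3% in G-K562, and 38.1% and 40.5% in G-K562 against B-K562, and the same shares are the background of the shorter lists that follow. Among the other PRC2 subunits, 3 of 9 were higher and 2 lower in B-K562, and 1 was higher and 5 were lower in G-K562. RBBP7, a histone-binding subunit of PRC2, had a log2 difference of 0.34 in B-K562 (adjusted p = 4.9e-05) and -0.45 in G-K562 (adjusted p = 1.0e-04). Its homologue RBBP4 had 0.04 in B-K562 (adjusted p = 0.51) and -0.36 in G-K562 (adjusted p = 0.00015). Others of this list went otherwise: PHF1 had -0.59 in B-K562 and 0.12 in G-K562 (limma, adjusted p = 6.2e-07 and 0.1). EPOP was higher in both lines, by 1.08 and 0.39.

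Among the other PRC1 core subunits, 6 of 13 were higher and 6 lower in B-K562, and 4 were higher and 6 lower in G-K562. For the partners of variant PRC1, 9 of 12 tested were higher and 2 lower in B-K562 (median 0.53), and 5 were higher and 3 lower in G-K562 (median 0.16). In the H2A deubiquitinase complex, 2 of 7 tested were higher and 1 was lower in B-K562, and 3 were higher and 1 was lower in G-K562. The largest rises in B-K562 were those of L3MBTL2, a subunit of a variant PRC1 (1.34 ± 0.06, adjusted p = 1.9e-10), EPOP, an accessory subunit of PRC2 (1.08 ± 0.10, adjusted p = 3.4e-07), and FBRSL1 (1.02 ± 0.05, adjusted p = 1.2e-09). The largest falls were those of EZHIP, an inhibitor of PRC2, KDM6B, a demethylase of lysine 27, at -0.95 ± 0.06 (adjusted p = 4.0e-09), and PCGF1, the PCGF subunit of a variant PRC1, at -0.66 ± 0.08 (adjusted p = 3.0e-06). EZHIP was low throughout, with 15, 17 and 21 in V-K562, 1, 0 and 1 in B-K562 and 12, 11 and 7 in G-K562. It passed the filter for B-K562 through the V-K562 libraries alone, so there it could appear only as a fall. Its place in this ranking and in the counts of lower genes in B-K562 is therefore no independent result.

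In G-K562 the largest rises among these genes were those of L3MBTL2 (0.66 ± 0.07, adjusted p = 4.8e-06), CBX6 (0.61 ± 0.08, adjusted p = 4.2e-05) and BCORL1, a corepressor related to BCOR (0.50 ± 0.09, adjusted p = 0.00041). The largest falls were those of SCML2, a PRC1-associated protein (-1.53 ± 0.08, adjusted p = 3.6e-08), the demethylase KDM6A (-0.97 ± 0.06, adjusted p = 1.1e-07) and PCGF5 (-0.95 ± 0.06, adjusted p = 1.7e-07). The lysine 27 demethylases differed between the BASP1 lines: in G-K562 against B-K562, KDM6A had a log2 difference of -0.90 (adjusted p = 1.1e-09) and KDM6B one of 1.20 (adjusted p = 7.6e-10). CDKN2A and CDKN2B, the classical INK4 targets of Polycomb repression, were below the filter. K562 is known to lack CDKN2A, yet CDKN2A had 15 and CDKN2B had 7 in V-K562 replicate 1, and CDKN2A had 2 in B-K562 replicate 1, with 0 in all other libraries. MPO, a myeloid marker, was 77 in V-K562 replicate 1 and 2 and 1 in the others of that line. Without that library SUZ12 in B-K562 was the single member whose call changed, as given above. AUTS2 reached at most 13 and ASXL3 at most 4, and neither was tested.

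The ATAC-seq question was whether chromatin at the members was more or less accessible. Of the 49 regions within 5 kb of a member, 36 could be tested in B-K562 against V-K562, 5 being higher and 2 lower, and 37 in G-K562 against V-K562, with 7 higher and 12 lower. Over all regions tested, 8.57% of 52204 were higher and 16.6% lower in B-K562, and 15.9% of 54213 were higher and 26.0% lower in G-K562. With at least 2-fold required, 2 member regions were higher and 0 lower in B-K562 (background 1.53% and 6.16%), and 2 were higher and 7 lower in G-K562 (background 2.86% and 13.1%). The regions higher by this rule all had libraries with no called peak. Of the 7 lower in G-K562, only the JARID2 regions starting at 15299479 and 15481859 had a peak in every library. The counts changed with single libraries. In B-K562, 2 regions were higher without B-K562 replicate 2 and 3 without B-K562 replicate 1 or 3, while 0 were lower without any 1 of the V-K562 replicates and 1 without B-K562 replicate 1. In G-K562, 4 were higher without G-K562 replicate 1 or 2, and 7 were lower without V-K562 replicate 2. The counts over all regions also fell on leaving out a replicate. They became 1927 to 3215 higher and 4221 to 5824 lower in B-K562, against 4474 and 8662 with every library. In G-K562 they became 5431 to 7436 higher and 8141 to 12053 lower, against 8632 and 14102. Without scaling, 12 member regions were higher and 8 lower in G-K562, beside 16887 and 9855 of all regions. In G-K562 against B-K562, 1 of 40 was higher (2 without B-K562 replicate 3) and 9 were lower (background 12.3% and 15.6%), and 1 was higher and 6 were lower with 2-fold (background 4.28% and 8.60%). The summit pileup, the number of tags at the highest point of a peak, was the value compared. A library with no called peak in a region was given the floor of 17 tags, so a difference that rests on such libraries is not a measured fold.

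Of the 10 member regions over a start, 2 were higher in B-K562 and 4 in G-K562, and 0 were lower in either. Their median log2 difference was 0.27 in B-K562 and 0.42 in G-K562. Over all tested regions at a listed gene start the medians were 0.23 and 0.31, with 19.2% and 39.2% called higher. The members' starts were thus near the values of gene starts in general, although the sets are not defined alike. Member starts include any protein-coding transcript start in GENCODE v44, and the general set only the outer start of each listed gene. Away from gene starts the medians of all regions were -0.16 and -0.22.

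The region over the EZH2 start (7:148884080-148885003) had summit pileups of 121, 148 and 162 tags in V-K562, 221, 225 and 244 in B-K562 and 234, 247 and 295 in G-K562. Both BASP1 lines stood above V-K562, with log2 differences after scaling of 0.53 ± 0.12 (adjusted p = 0.013) and 0.50 ± 0.13 (adjusted p = 0.017), the second of which was 0.26 (adjusted p = 0.17) by mean pileup. The EZH2 start was thus higher in G-K562, where the transcript was lower. The SUZ12 start (17:31936511-31937323) had 73, 78 and 69 tags in V-K562, 118, 146 and 111 in B-K562 and 139, 137 and 152 in G-K562, without overlap with V-K562. Its log2 difference was 0.60 in both lines (adjusted p = 0.014 and 0.0029). The EED start (11:86244327-86245443) had 78, 73 and 72 tags in V-K562, 133, 115 and 90 in B-K562 and 142, 133 and 155 in G-K562, with log2 differences of 0.43 (adjusted p = 0.069) and 0.59 (adjusted p = 0.0034).

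The CBX7 start (22:39152409-39153090) had 27, 42 and 42 tags in V-K562, 62, 68 and 49 in B-K562 and 83, 74 and 70 in G-K562. It was higher in G-K562 (0.69, adjusted p = 0.029, but 0.49 and adjusted p = 0.069 without V-K562 replicate 1), and was 0.54 in B-K562 (adjusted p = 0.12), where CBX7 RNA was 2.21-fold lower. At the CBX2 start (17:79777568-79778423), the member with the largest rise in RNA, pileups were 27, 38 and 40 tags in V-K562, 45, 44 and 51 in B-K562 and 59, 63 and 57 in G-K562. The libraries did not overlap, but after scaling the log2 differences of 0.27 (adjusted p = 0.38) and 0.43 (adjusted p = 0.12) did not pass. The starts of EZH1, CBX8 and JARID2 did not pass in either line, with log2 differences of -0.14 to 0.41. The BMI1 region over a start, which did not pass either, is given below.

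**Figure D4:**
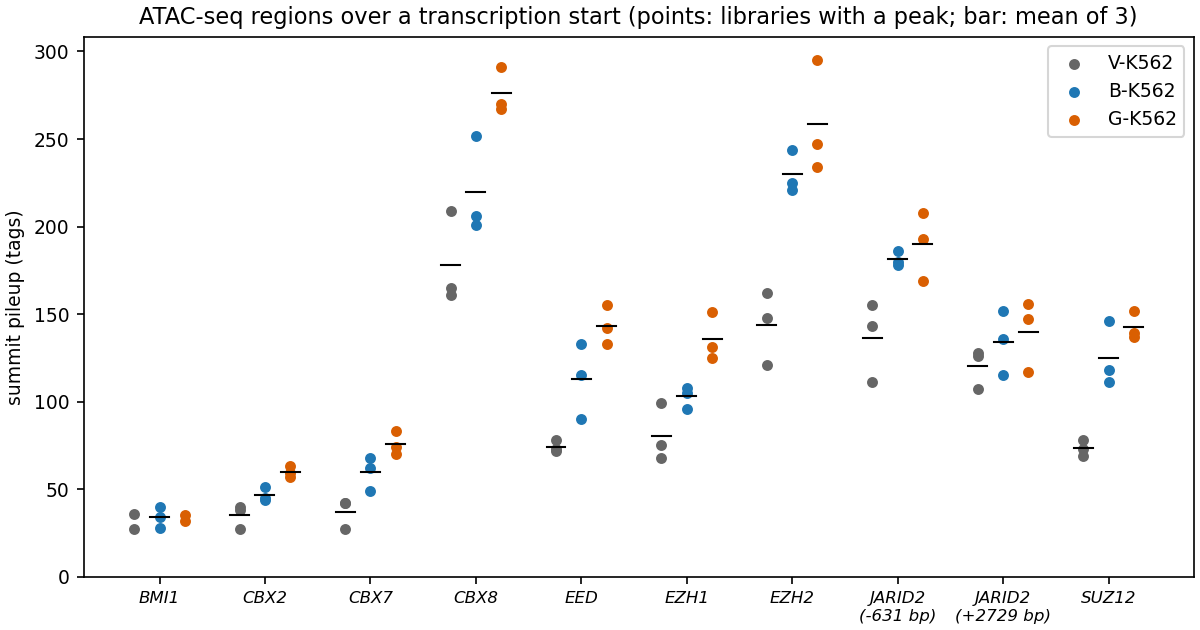
Summit pileup in tags (vertical axis, from 0, before scaling) of the 10 member regions over a transcription start, with a point for each library of a line with a peak and a bar for the mean where all 3 libraries have a peak. The EZH2 and SUZ12 starts lie higher in both BASP1 lines, and the second JARID2 start differs little between lines.

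At BMI1, 2 regions beside the gene start had a called peak in the BASP1 lines and in no V-K562 library. The upstream region (10:22320767-22321092), which covers most of the BMI1 promoter sequence given above, had pileups of 67 and 63 tags in 2 B-K562 libraries, none in the other, and 61, 47 and 71 in G-K562. The region in the first exon, an untranslated exon in GENCODE v44 (10:22321247-22321593), had 44, 57 and 48 tags in B-K562 and 42, 50 and 41 in G-K562. With V-K562 at the floor, the exon region was called higher in B-K562 (adjusted p = 0.0029) and G-K562 (adjusted p = 0.0012), and the upstream region in G-K562 (adjusted p = 0.00072). These regions could be tested only through the line called higher, because every V-K562 library was set to the same floor value. The adjusted p-values therefore measure no spread between V-K562 cultures, and the calls say only that peaks were called in the BASP1 lines alone. BMI1 RNA was higher in B-K562 and not in G-K562, although both lines had these peaks. The BMI1 region over a transcription start (10:22325642-22325919), 4550 bp inside the gene, had 36 and 27 tags in 2 V-K562 libraries and none in the other. There, B-K562 had 28, 34 and 40 tags, and G-K562 had 35 and 32 in 2 libraries. That region did not pass in B-K562 (0.26, limma, adjusted p = 0.56) or G-K562 (-0.16, adjusted p = 0.74). A region 4730 bp upstream (10:22316027-22317139), within 5 kb of COMMD3 as well, had peaks in all 9 libraries, with 84, 73 and 78 tags in V-K562, 74, 69 and 67 in B-K562 and 55, 59 and 76 in G-K562, and was -0.66 in G-K562 (adjusted p = 0.012, or -0.31 and adjusted p = 0.14 without scaling).

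JARID2 held 26 of the regions, 24 of them in introns. In G-K562, 7 of 18 tested were lower and 1 was higher, and in B-K562, 1 of 19 was lower and 0 higher. Over all regions tested away from gene starts, 30.7% were lower and 10.8% higher in G-K562, and 19.7% were lower and 6.17% higher in B-K562, so the JARID2 counts in G-K562 were near that background. The region with the largest fall (6:15299479-15300095, 53769 bp into the gene) had 142, 137 and 154 tags in V-K562, 160, 156 and 148 in B-K562 and 52, 56 and 47 in G-K562. V-K562 and B-K562 overlapped, while the G-K562 libraries were far below both. The log2 difference was -1.81 ± 0.13 in G-K562 (adjusted p = 0.00019) and -0.05 ± 0.09 in B-K562 (adjusted p = 0.70), and every library had a peak, so the fold does not rest on the floor. The region at 6:15481859-15482307, 236073 bp into the gene, had 87, 68 and 59 tags in V-K562, 58, 54 and 62 in B-K562 and 38, 21 and 30 in G-K562 (-1.60, adjusted p = 0.0022).

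A further 3 JARID2 intronic regions were lower by at least 2-fold in G-K562 but with a library or more at the floor, namely those starting at 15368863 (-1.17), 15400661 (-1.19) and 15409222 (-1.52). The regions starting at 15327236 (-0.80, adjusted p = 0.039) and 15509496 (-0.66, adjusted p = 0.017) were called by smaller differences. In contrast, the region at 6:15358798-15359178 had 24, 22 and 21 tags in V-K562, no called peak in B-K562 and 63, 57 and 51 tags in G-K562, higher in G-K562 by 0.97 ± 0.18 (adjusted p = 0.0042). The 2 JARID2 starts did not pass in G-K562, at 0.14 (adjusted p = 0.45) and -0.14 (adjusted p = 0.46), and the 7 regions called lower all lay away from them.

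**Figure D5:**
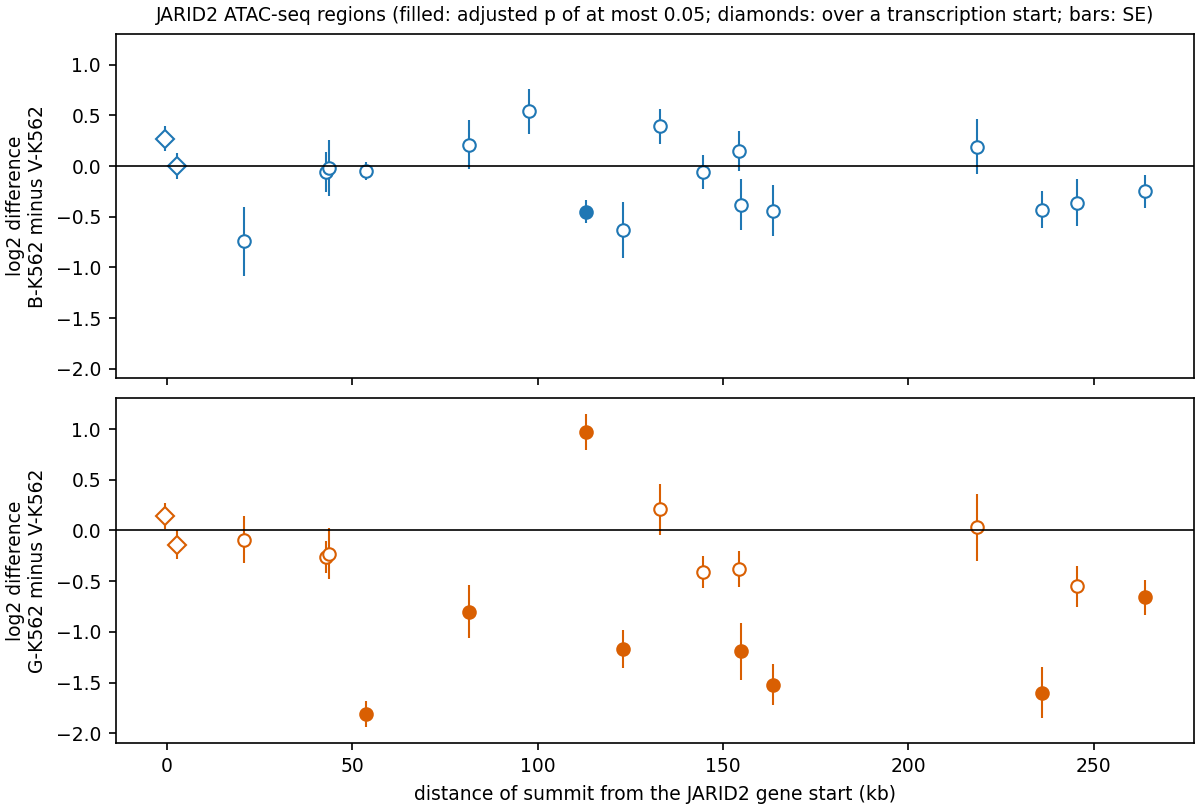
Log2 difference of summit pileup (vertical axes, with SE) of the JARID2 regions tested, by distance of the summit from the gene start in kb, in B-K562 (upper panel) and G-K562 (lower panel) against V-K562. Filled symbols passed an adjusted p-value of 0.05 and diamonds lie over a transcription start, and in G-K562 7 intronic regions lie below 0, down to -1.81, and 1 above, at 0.97.

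The 200 bases around the summit are given for the JARID2 region with the largest fall in G-K562 and for the one that was higher, on the plus strand, with matches to AGATAA, a motif of the GATA factors searched on both strands, in capitals.
Lower in G-K562, chr6:15299644-15299843: 
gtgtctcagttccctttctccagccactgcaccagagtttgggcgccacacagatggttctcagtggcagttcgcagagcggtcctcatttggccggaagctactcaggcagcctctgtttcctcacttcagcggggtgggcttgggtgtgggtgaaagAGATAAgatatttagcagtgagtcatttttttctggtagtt
Higher in G-K562, chr6:15358876-15359075: 
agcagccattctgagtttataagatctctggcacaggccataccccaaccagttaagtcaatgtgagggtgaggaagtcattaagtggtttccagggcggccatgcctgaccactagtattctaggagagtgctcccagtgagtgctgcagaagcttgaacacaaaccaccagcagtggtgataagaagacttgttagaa

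The exact letters AGATAA, chosen after the values were seen, were in 1 of these 2 sequences. Other spellings around GATA were not searched, and the sequence that was higher in G-K562 holds TGATAA. Of the 26 JARID2 regions, AGATAA was in 2 of the 7 lower in G-K562 and 0 of the 1 higher. It was in 0 of the 10 that did not pass and 2 of the 8 not tested. Over all 85549 regions, 18.6% held AGATAA in the same window. The RNA of GATA1, the erythroid GATA factor, had a log2 difference of 0.22 in B-K562 (adjusted p = 0.0003) and -0.56 in G-K562 (adjusted p = 3.0e-06). A link between GATA1 and these regions was not tested.

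Intronic regions of EZH1 and EZH2 also differed. In EZH2, the region at 7:148850606-148850896 had 42, 41 and 31 tags in B-K562 and no called peak in the other lines, the region at 7:148847829-148848208 had 42, 33 and 40 tags in V-K562, 43, 42 and 39 in B-K562 and 28 in 1 G-K562 library, and the region at 7:148868283-148868606 had 26, 30 and 30 tags in V-K562 and no called peak in either BASP1 line. By the floor rule these were higher in B-K562 (adjusted p = 0.0056), lower in G-K562 (adjusted p = 0.0046), and lower in both lines (adjusted p = 0.0061 and 0.0015). For the regions starting at 148850606 and 148868283, the line without peaks was at the floor in every library. These regions could be tested only through the line with peaks, so their p-values measure the spread of that line alone. In EZH1, the region at 17:42743580-42743949, 1302 bp inside the gene, had 33, 52 and 61 tags in V-K562, 59 in 1 B-K562 library and no called peak in G-K562 (adjusted p = 0.0018 in G-K562). There too the p-value measures the spread of V-K562 alone. The region downstream of EZH1 (17:42698897-42699566), also within 5 kb of CNTNAP1, had 203, 200 and 214 tags in V-K562, 275, 292 and 266 in B-K562 and 179, 166 and 216 in G-K562. Its log2 difference was 0.28 in B-K562 (adjusted p = 0.035) and -0.49 in G-K562 (adjusted p = 0.0062, or -0.14 and adjusted p = 0.31 without scaling).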

How the data were processed

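Each line was profiled by RNA-seq and ATAC-seq in 3 cultures, grouped by their labels. RNA-seq reads were aligned by the authors to GRCh38 (STAR), and those that were unique, not duplicated and with few mismatches were assigned to RefSeq genes by Subread. The deposited RNA-seq values, treated as a score, are the authors' counts divided by size factors and rounded, in 1 table with B-K562 and 1 with G-K562. The remaining deposited columns hold the authors' own comparisons (group means, fold changes and p-values) and were not used. The interval at which whole numbers repeat or are skipped gave size factors of 0.8715 to 1.1335, and about 28914432 to 37055010 reads on genes per library. ATAC-seq reads were aligned with BWA-MEM and freed of duplicates by the authors, who called peaks per library with MACS2, and the deposited signal is the pileup at each summit and its mean over the interval. The deposited gene length, a value of another kind, is the authors' length of merged exons.

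The V-K562 columns differed between the RNA-seq tables by a factor with a mean of 1.017 (1.0153 to 1.0203), and values in the text are on the scale of the G-K562 table, B-K562 values being multiplied by that mean. Genes reaching 10 in 3 or more of the libraries compared were tested by limma 3.58.1 (R 4.3.3) on log2(value + 1) with a variance trend, and p-values were adjusted by Benjamini and Hochberg's method over all genes tested. The fits of each BASP1 line against V-K562 used the 6 libraries of their own table, and G-K562 against B-K562 all 9. Differences are on the log2(value + 1) scale, which understates changes of low genes. ATAC-seq intervals were merged where they overlapped, each region took its highest summit pileup per library, values were scaled by a trimmed mean (30% of log ratios and 5% of mean values trimmed), and absent or lower values were set to 17, the 5th percentile. Regions with a peak in at least 3 libraries were tested in limma in the same way. File starts were read as counted from 0 and 1 was added. The lowest summit pileup was 10, and tags below the calling threshold are not in the files used.

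The genes named are the 9 members, BASP1, the 3 largest rises and 3 largest falls among the other Polycomb genes in each comparison with V-K562, genes at 0 or not tested, CDKN2A and CDKN2B, the 3 genes most like the member of widest range, and the neighbours COMMD3 and COMMD3-BMI1. RBBP4, RBBP7, PHF1, GATA1, SUZ12P1 and marker genes were added after their values were seen. Of the listed genes that are no members, 2 are not reported here and were left out of the lists' counts, sums and rankings. The members and lists were chosen with earlier results of these data known. Differences by leave-one-out, pseudocounts, filters, scalings, floors and the replicate block were tried as alternatives. limma's fits were tested on simulated data. No replicate pair agreed within sampling noise.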

Additional observations from a re-analysis of the deposited data

Results flagged for a closer look

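In each case here the lines B-K562 and G-K562 differed by the test of G-K562 against B-K562 itself (limma, fit of all 9 libraries). With a single line per construct, effects of the BASP1 forms and differences between pools cannot be told apart. Values are log2 differences, G-K562 minus B-K562. Among the transcripts, EZH1 (-0.46), EZH2 (-0.72), EED (-0.62), JARID2 (-0.29) and BMI1 (-0.91) were lower in G-K562, and SUZ12 (0.15), CBX2 (0.30), CBX7 (1.02) and CBX8 (0.37) were higher.

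Among the ATAC-seq regions, the region downstream of EZH1 differed by -0.79, and the EZH2 intronic regions starting at 148847829 and 148850606 differed by -1.08 and -1.12. In JARID2, the regions starting at 15299479 (-1.78), 15327236 (-1.02), 15343497 (-0.71), 15399977 (-0.55), 15409222 (-1.09) and 15481859 (-1.19) were lower in G-K562, and the region starting at 15358798 (1.49) was higher. Of these, the JARID2 regions starting at 15299479, 15327236, 15399977 and 15481859 and the region downstream of EZH1 had a called peak in all 6 libraries of the 2 lines, and the others rest in part on the floor of 17 tags. Erythroid markers were also lower in G-K562 than in B-K562 (8 of 8, beside 40.5% of all genes tested), and their part in these differences was not tested.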

How the results depend on the processing

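Of 426 member log2 differences computed under an alternative, 415 kept their direction and their side of an adjusted p of 0.05. Reversed were EZH2 (-9.8e-06) and SUZ12 (-0.06) in B-K562 against V-K562 under upper quartile scaling. That scaling moved the median of all genes there from 0.007 to -0.145.

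With at least 2-fold also required, 1 member was higher and 1 lower in B-K562, 1 higher and 1 lower in G-K562, and 1 higher and 0 lower in G-K562 against B-K562. For the 43 other Polycomb genes tested these counts were 3 and 1, 0 and 1, and 2 and 2. The 1 lower in B-K562 was EZHIP. Over all genes tested, the shares higher and lower by this rule were 6.46% and 14.1% in B-K562, and 8.81% and 10.3% in G-K562. In G-K562 against B-K562 they were 17.4% and 12.5%. For the ATAC-seq regions the counts were 2 higher and 0 lower in B-K562, and 2 higher and 7 lower in G-K562. The shares over all regions were 1.53% and 6.16%, and 2.86% and 13.1%.

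Replicate numbers did not pair the RNA-seq samples: deviations of same-numbered libraries correlated at -0.151 to 0.257, against -0.297 to 0.371 for libraries of different number. In ATAC-seq the same-numbered libraries correlated weakly, at 0.007 to 0.122, against -0.084 to 0.047 for different numbers. The highest ATAC-seq values were those among the replicates numbered 1 (0.122, 0.088 and 0.111), so a weak pairing by number was visible there. With the replicate block, 5 members were higher in B-K562, CBX8 joining at an adjusted p = 0.048 (limma), and among the ATAC-seq regions 4 were higher and 1 lower in B-K562, 8 higher and 12 lower in G-K562, and 1 higher and 8 lower in G-K562 against B-K562. The block gave 5855 of all genes higher in B-K562, against 5780 without it. Over all regions it gave 4569 higher and 8145 lower in B-K562, and 8731 and 13740 in G-K562. In G-K562 against B-K562 it gave 7275 and 9090.

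For the ATAC-seq regions in B-K562, 1 was lower with the floor at the 10th percentile and 0 with a peak required in every library. Leaving out a replicate gave 2 to 5 higher and 0 to 2 lower (1927 to 3215 and 4221 to 5824 over all regions, against 4474 and 8662). In G-K562, 12 were higher and 8 lower without scaling, which moved the median of all regions from -0.096 to 0.188 and turned 8632 higher and 14102 lower into 16887 and 9855, and 6 were lower with a peak in every library. Leaving out a replicate gave 4 to 8 higher and 7 to 12 lower (5431 to 7436 and 8141 to 12053 over all regions). In G-K562 against B-K562, a peak in every library gave 0 higher and 5 lower, and leaving out a replicate gave 1 to 2 higher. Over all regions, 7395 were higher in that comparison, and leaving out a replicate gave 5061 to 7848. The fewer calls with a peak in every library go with fewer regions tested, and the other causes were not tested. Precision is limited for pileups near 17 tags and for the transcripts of lowest value, BMI1, CBX7 and CBX8.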
